A study of Mus musculus with 2 samples.

Results

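The chemokine system of the mouse prostate tissue was taken as every gene whose symbol names a chemokine (Cxcl, Ccl, Cx3cl1 or Xcl1), a chemokine receptor (Cxcr, Ccr or Cx3cr1) or an atypical chemokine receptor (Ackr). This rule found 58 of the 27935 genes measured, on 63 of the 28000 feature rows: 37 ligands, 17 signalling receptors and 4 atypical receptors. Of these, 55 had at least 1 UMI (a counted RNA molecule) in the DoubleTg library and 56 in the TripleTg library. The rule used names only and no measured value. Of the 58 genes, 14 lie on chromosome 11, 12 on chromosome 9 and 10 on chromosome 5.

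Both libraries were made from mouse prostate tissue with tumour lesions by single-cell RNA sequencing (10x Genomics, 3′ chemistry), with 1 library per genotype. DoubleTg mice carried hHGFtg, H11 hMET/+ and PB Cre4, and their tissue is labelled prostatic adenocarcinoma. The study describes this tissue as holding high-grade prostatic intraepithelial neoplasia as well as cancer lesions. TripleTg mice carried the same 3 alleles and in addition Ctnnb1 L(Ex3)/+, and their tissue is labelled prostatic carcinoma. The ligand transgene hHGFtg is active throughout the body, whereas human MET (hMETtg) is switched on only where Cre has removed a stop cassette, and Cre is driven by the probasin promoter of prostate epithelium. In TripleTg epithelium the same Cre deletes an exon of Ctnnb1, which leaves a stabilised β-catenin. Non-epithelial cells carry the alleles of their genotype too, but the probasin promoter that drives Cre is not known to act in them. Age and the number of mice per library are not given in the sources used here, and since each genotype is 1 library, a difference between genotypes cannot be told apart from a difference between libraries. All intervals below are 95% intervals that cover counting error only.

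Chemokines are small secreted proteins that guide leukocytes along a gradient, and they act through receptors coupled to inhibitory G proteins. Ligands of the CXC type that bind Cxcr2 draw neutrophils, interferon-induced ligands of Cxcr3 draw activated T cells, and CC ligands of receptors such as Ccr2 and Ccr1 draw monocytes and effector lymphocytes. Atypical receptors bind chemokines without G protein signalling, and some of them remove chemokines. Many inflammatory chemokines are transcribed under NF-κB, and in prostate tumours both epithelium and stroma are known sources.

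The promoters of 4 ligands are shown because the results below turn on these genes and because 3 of them share a κB site letter for letter. Sequences are from RefSeq on GRCm38.p6, from 250 bases before to 50 bases after the transcription start, 5′ to 3′ on the strand of the gene. Capitals mark matches to the κB consensus, the DNA element bound by NF-κB, and in Cxcl10 also, as the first stretch of capitals, the match GAAAGTGAAA, the reverse strand of the interferon-stimulated response element searched as TTTCNNTTTC. Cxcl1 lies at chr5:90890995-90891294, Cxcl2 at chr5:90903649-90903948 and Cxcl3 at chr5:90785851-90786150, all on the plus strand, and Cxcl10 at chr5:92348840-92349139 on the minus strand.
Cxcl1: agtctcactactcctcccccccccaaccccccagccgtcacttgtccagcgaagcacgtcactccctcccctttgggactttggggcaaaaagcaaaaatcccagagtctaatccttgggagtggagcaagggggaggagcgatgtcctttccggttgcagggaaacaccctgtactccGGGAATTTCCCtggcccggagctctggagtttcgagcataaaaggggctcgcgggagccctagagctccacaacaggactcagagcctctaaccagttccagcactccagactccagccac
Cxcl2: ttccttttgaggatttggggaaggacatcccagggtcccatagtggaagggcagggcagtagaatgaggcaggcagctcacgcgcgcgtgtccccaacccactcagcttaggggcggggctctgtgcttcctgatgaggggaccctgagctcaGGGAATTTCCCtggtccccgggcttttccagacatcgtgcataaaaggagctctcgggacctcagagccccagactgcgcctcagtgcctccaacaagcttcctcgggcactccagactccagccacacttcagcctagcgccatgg
Cxcl3: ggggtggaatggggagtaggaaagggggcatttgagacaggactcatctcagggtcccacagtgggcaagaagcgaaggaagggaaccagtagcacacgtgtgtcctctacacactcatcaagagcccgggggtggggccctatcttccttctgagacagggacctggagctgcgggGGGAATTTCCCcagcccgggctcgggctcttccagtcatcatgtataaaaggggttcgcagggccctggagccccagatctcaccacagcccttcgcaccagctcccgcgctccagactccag
Cxcl10: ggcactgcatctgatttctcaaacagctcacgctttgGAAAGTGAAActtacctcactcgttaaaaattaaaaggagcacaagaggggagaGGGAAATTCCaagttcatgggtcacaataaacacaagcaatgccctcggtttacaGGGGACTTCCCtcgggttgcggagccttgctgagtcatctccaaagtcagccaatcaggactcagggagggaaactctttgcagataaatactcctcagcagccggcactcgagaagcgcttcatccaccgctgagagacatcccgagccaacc

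The run GGGAATTTCCC stands in the Cxcl1, Cxcl2 and Cxcl3 promoters and in 14 of 32851 promoters of the same length (0.0426%). No other promoter among the chemokine and receptor genes held it. It was looked for after the 3 promoters had been read. Its first base is at -71 from the start in Cxcl1, -97 in Cxcl2 and -73 in Cxcl3. A κB match on either strand was found in 12 of 51 promoters of 44 chemokine and receptor genes (23.5%) and in 8.46% of all promoters. The interferon element was found in 3 of the 51, those of Ccl19, Cxcl10 and Cxcl14, and in 3.44% of all promoters. These matches describe letters and not binding. RefSeq promoters of Cxcl5, Cxcl16, Cxcl17, Ccl2, Ccl4 and Ccl5 were not used here.

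After the study's limits on genes and mitochondrial UMIs per cell, 10598 DoubleTg and 9492 TripleTg cells were kept, with medians of 16761 and 20097 UMIs. The chemokine and receptor genes held 349694 of 256880958 UMIs (0.136%) in DoubleTg and 318279 of 229655259 (0.139%) in TripleTg. Cells were clustered within each library without these genes and named from marker lists, which left 1691 and 1666 cells unnamed. Of all cell barcodes, 30 occurred in both libraries. Keratin 8 (Krt8), a luminal keratin, stood at 4424 and 4688 counts per 1000000 UMIs of the class (CPM) in epithelial-like DoubleTg and TripleTg cells, while probasin (Pbsn), a secretory protein of differentiated prostate epithelium, stood at 1432 and 7.41 CPM. Markers of seminal vesicle summed to 179.8 CPM in DoubleTg and 2779 CPM in TripleTg macrophage-like cells and 204 and 3470.3 CPM in fibroblast-like cells, and the part of such RNA from other cells in the values below was not tested. Chemokine levels below are in CPM, summed over the cells of a class, and are not divided by gene length because the 3′ assay counts 1 end of each molecule.

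Of the 58 genes, 36 reached at least 50 CPM in a named class of at least 50 cells. The 22 others stayed below 50 CPM in all such classes, 14 of them under 10 CPM, among which Cxcr1, Ccl1, Ccl28, Ccr4, Ccl27b and Ccr8 stayed at or under 1.09 CPM and Ccl21b and Ccl26 had no UMI in these classes. Ccl19, Ccl21 and Ccl27 have near-identical copies in the mouse genome, so the split of reads between those copies is uncertain.

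**Figure D1:**
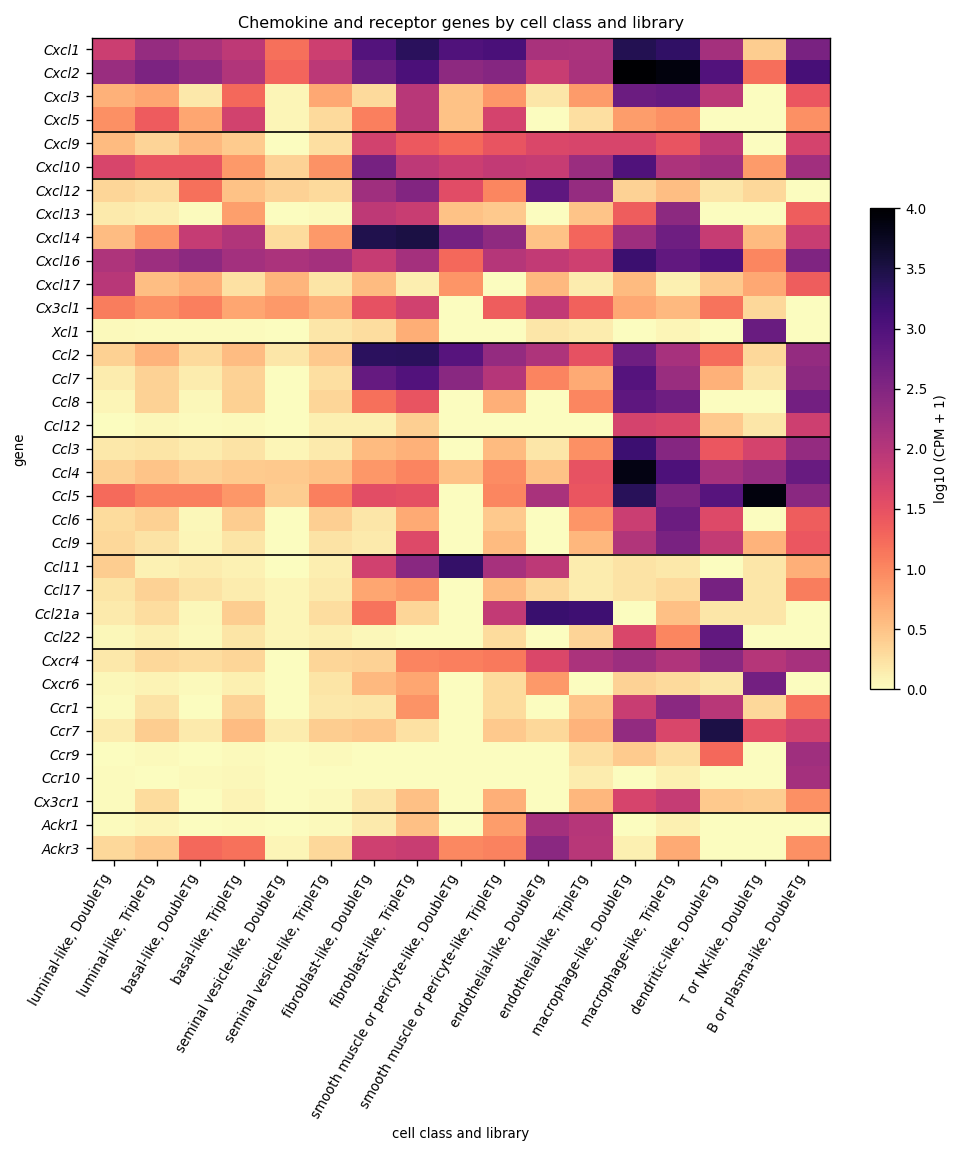
Level of the chemokine and receptor genes reported here that reached 50 CPM, by cell class and library, as log10(CPM + 1), with black lines between roles. Macrophage-like cells hold the highest Cxcl2 level, 10392 CPM in DoubleTg and 8023 in TripleTg, and receptors are highest in leukocyte and endothelial classes.

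Of the neutrophil-attracting ligands, Cxcl2 and Cxcl3 were highest in macrophage-like cells of both libraries. Cxcl2 stood there at 10392 CPM (interval 10277 to 10508) in DoubleTg and 8023 CPM (7952 to 8095) in TripleTg, the highest level of any chemokine gene in that class. Cxcl1 stood at 2586 and 1939.9 CPM and Cxcl3 at 531 and 617 CPM. For Cxcl1, fibroblast-like cells stood at 914 and 2217 CPM, above macrophage-like cells in TripleTg only, and smooth muscle or pericyte-like cells at 976 and 1115 CPM. In DoubleTg the Cxcl1 intervals of those stromal classes overlapped (892 to 938 and 888 to 1071), and in TripleTg they did not.

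Epithelial levels of Cxcl2 were lower. Luminal-like cells had 184 CPM of Cxcl2 in DoubleTg and 359 in TripleTg. They held 43.8% and 46.1% of all Cxcl2 UMIs of the library, against 37.4% and 41.9% in macrophage-like cells. Of the kept cells, 47.5% and 50.9% were luminal-like and 2.69% and 5.52% macrophage-like. The luminal share of Cxcl2 UMIs was thus below the luminal share of cells. Cells were thinned to 2000 UMIs to compare shares of cells. Cxcl2 was then seen in 79.9% of DoubleTg and 79.2% of TripleTg macrophage-like cells, in 9.77% (8.95 to 10.6%) and 24.1% (22.9 to 25.3%) of luminal-like cells, and in 3.09% of DoubleTg T or NK-like cells, which are not known as a main source. Without thinning these luminal shares were 32.6% and 67.3% and the T or NK share was 7.60%, at median depths of 35488, 25680 and 6634 UMIs. For each UMI of Ccl4, a ligand found mostly in macrophage-like cells, there were 130.0 UMIs of Cxcl2 in DoubleTg luminal-like cells and 1.47 in DoubleTg macrophage-like cells, and 169 and 7.73 in TripleTg. That ratio was 10.6 in DoubleTg seminal vesicle-like and 4.56 in TripleTg endothelial-like cells. In DoubleTg and TripleTg it was 81.4 and 115 in fibroblast-like and 167 and 63.0 in basal-like cells. It thus did not set luminal-like cells apart from every other class. The T or NK-like cells are of the DoubleTg library only, and the part of RNA from other cells in the luminal values was not tested.

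Cxcl5 and Cxcl15, the remaining neutrophil-attracting ligands, were low in most classes. Cxcl5 reached 93.3 CPM in fibroblast-like, 51.4 in basal-like and 23.5 in luminal-like TripleTg cells, against 10.9, 4.45 and 7.50 CPM in DoubleTg. Cxcl15 was highest in luminal-like DoubleTg cells at 14.8 CPM. Cxcr2, the receptor for these ligands, was nearly undetected: it stayed at or under 1.68 CPM in all classes of at least 50 cells, and 24 DoubleTg neutrophil-like cells, with a median of 555.5 UMIs, held 2 UMIs of it, all in 1 cell. These DoubleTg neutrophil-like cells were thus too few and too shallow to measure it. An unnamed TripleTg cluster led by neutrophil genes, given under other observations, held more UMIs of Cxcr2.

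The interferon-induced ligand Cxcl10, which draws T cells through Cxcr3, was highest among classes of at least 50 cells in DoubleTg macrophage-like cells at 969 CPM and in DoubleTg fibroblast-like cells at 419.7 CPM. In glial-like cells it stood at 2488 CPM over 34 DoubleTg cells and 1172 CPM over 25 TripleTg cells, but 1 cell held 90.7% and 35.4% of those UMIs. Cxcl9 was at most 83.0 CPM, in DoubleTg dendritic-like cells, of whose Cxcl9 UMIs 1 cell held 49.6%. Cxcl11 was not analysed here. Their receptor Cxcr3 reached 11.4 CPM in T or NK-like DoubleTg cells (21 UMIs).

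Among the other ligands of the CXC, CX3C and XC types, Cxcl14 and Cxcl12 were mainly stromal and endothelial. Cxcl14, a homeostatic chemokine, stood at 2756 and 3219 CPM in fibroblast-like cells of DoubleTg and TripleTg. It was uneven among them: in DoubleTg it was 6753 CPM in a cluster of 147 cells led by Spp1, Tagln and Acta2 and 248 CPM in one of 291 cells led by Sult1e1, Lum and C3, while Ccl2 stood the other way round at 298 and 4148 CPM. Cxcl12, the ligand of Cxcr4 that keeps leukocytes and progenitors in place, stood at 698 and 197 CPM in endothelial-like and 161 and 315 CPM in fibroblast-like cells. Endothelial-like cells were thus the higher class in DoubleTg and fibroblast-like cells in TripleTg.

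Cxcl16, a membrane-bound ligand of Cxcr6, was found in both leukocyte and epithelial classes. It stood at 1578 and 661 CPM in macrophage-like, 1027 and 722 in dendritic-like (only 42 cells in TripleTg), 246 and 148 in basal-like and 116 and 171 in luminal-like cells. After thinning it was seen in 21.2% and 27.5% of luminal-like cells (85.8% and 90.9% unthinned), against 1.16% (4.94%) of DoubleTg T or NK-like cells. Cxcr6, its receptor on effector T and NK cells, was 445 CPM in T or NK-like cells, of which 48.3% had a UMI after thinning, and 0.121 CPM in luminal-like cells of the same library. Ligand and receptor were thus measured in different classes.

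In DoubleTg, 95.9% of the UMIs of Cxcl17, a mucosal chemokine, were in luminal-like cells, at 93.0 CPM. Those were 47.5% of the kept DoubleTg cells, with a median of 35488 UMIs against 16761 over all kept cells. The TripleTg level of Cxcl17 is given below. The Cxcl17 gene spans chr7:25400053-25412886 (GRCm38). Xcl1, a ligand for cross-presenting dendritic cells, was found in DoubleTg mainly in T or NK-like cells at 556 CPM, against 0.892 in fibroblast-like and 0.111 in luminal-like cells, and its T or NK level was 314 CPM without limits on cells. Cx3cl1, or fractalkine, was highest in endothelial-like DoubleTg cells at 76.1 CPM and its receptor Cx3cr1 in macrophage-like cells at 46.5 and 69.5 CPM. Cxcl13, which draws B cells through Cxcr5, reached 252 CPM in TripleTg macrophage-like cells and 80.4 and 65.1 CPM in fibroblast-like cells. Its macrophage-like level in TripleTg was 459.6 CPM with the mean of per-cell CPM, where Cxcl14 in TripleTg fibroblast-like cells was 2045 CPM.

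The monocyte-attracting ligands were stromal and macrophage genes. Ccl2, the main ligand of Ccr2, stood at 2165 and 2233 CPM in fibroblast-like cells, which held 81.0% and 68.7% of its UMIs. Ccl7, another Ccr2 ligand, stood at 612 and 963 CPM in fibroblast-like and at 883 and 188 in macrophage-like cells, and its fibroblast-like TripleTg level was 632 CPM with the mean of per-cell CPM. Ccl8 and Ccl12, further monocyte attractants, stood at 706 and 495 CPM and at 47.9 and 43.4 CPM in macrophage-like cells, while B or plasma-like DoubleTg cells, in which the macrophage gene C1qa stood at 2281 CPM, had 442 CPM of Ccl8 and 58.9 of Ccl12. With the chemokine genes among the variable genes, no Ccl12 UMI was left in that class, while the mean of per-cell CPM gave 122 CPM of it.

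Among the inflammatory CC ligands, Ccl4 and Ccl3, which draw monocytes and T cells, were highest in macrophage-like cells at 7048 and 1509 CPM in DoubleTg and 1038 and 285 CPM in TripleTg. Macrophage-like cells held 89.0% and 90.2% of all Ccl4 UMIs. Ccl5, a ligand made by effector T and NK cells, was highest in T or NK-like DoubleTg cells at 7928 CPM (7799.5 to 8057), where 93.8% of cells had a UMI after thinning, and second in DoubleTg macrophage-like cells at 2324. In luminal-like DoubleTg cells that share was 1.33%. Clustering with the chemokine genes among the variable genes gave 4802 CPM of Ccl5 in T or NK-like cells. Ccl6 and Ccl9, ligands of Ccr1, were highest in TripleTg macrophage-like cells at 526 and 379.8 CPM.

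Of the ligands of type 2, mucosal and lymphoid homing, Ccl21a, which guides dendritic and naive T cells through Ccr7, stood at 1609.9 and 1458 CPM in endothelial-like cells. Within that class it lay in the clusters led by the lymphatic markers Mmrn1, Lyve1 and Reln, at 18372 CPM over 74 DoubleTg cells and 25040.0 CPM over 17 TripleTg cells, with 1 cell holding 52.4% and 29.6% of the class's UMIs. Ccl17 and Ccl22, the ligands of Ccr4, were highest in dendritic-like cells at 413 and 656 CPM in DoubleTg, and 395 and 372 CPM over 42 TripleTg cells, where 1 cell held 82.2% of the Ccl17 UMIs. Ccl11, or eotaxin, which draws eosinophils, was highest in smooth muscle or pericyte-like DoubleTg cells at 1822 CPM. Its level there was 884 CPM without limits on cells and 608 CPM at a finer cluster resolution.

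Signalling receptors were on the whole lower than ligands, and most were leukocyte genes. Ccr7, which takes mature dendritic cells to lymph nodes, was the highest, at 3143 CPM in DoubleTg and 2075 CPM in TripleTg dendritic-like cells (only 42 cells in TripleTg). After thinning, 83.3% and 78.0% of those cells had a Ccr7 UMI (87.5% and 90.5% unthinned), against 0.0805% and 0.479% of luminal-like cells. The ligand Ccl21a and the receptor Ccr7 were thus highest in different classes.

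Cxcr4 was spread over leukocytes and endothelium: 266 and 174 CPM in dendritic-like (only 42 cells in TripleTg), 175 and 114 in macrophage-like and 42.0 and 125 in endothelial-like cells, with 99.4 in T or NK-like DoubleTg cells. Ccr1 stood at 65.1 and 263 CPM in macrophage-like cells. Ccr10 and Ccr9, homing receptors of plasma cells and gut lymphocytes, reached 147 and 162 CPM in B or plasma-like DoubleTg cells, yet these were 40 and 44 UMIs, with 40.0% and all of them in 1 cell. With the mean of per-cell CPM they were 16.1 and 24.4 CPM, and with the chemokine genes among the variable genes 273 and 301 CPM. Ccr2, the receptor of Ccl2 on monocytes, was highest at 41.3 CPM in T or NK-like DoubleTg cells among classes of at least 50 cells, and was 6.65 and 18.5 CPM in macrophage-like cells.

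The atypical receptors were endothelial and stromal. Ackr3, which scavenges Cxcl12, stood at 263 and 92.2 CPM in endothelial-like and 56.0 and 64.3 CPM in fibroblast-like cells. Ackr1, a venular receptor for inflammatory chemokines, stood at 144 and 98.5 CPM in endothelial-like cells and at or under 5.52 CPM in other classes of at least 50 cells. Ackr2, which degrades inflammatory CC ligands, reached 26.1 CPM in TripleTg endothelial-like cells and Ackr4 3.43 CPM at most.

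The genotypes were compared within classes that held at least 50 cells in each library, over genes with at least 5 CPM in either library, and a difference of at least 2-fold was taken as a size limit without a test. Epithelial-like cells (7023 in DoubleTg and 6585 in TripleTg) were the luminal-like, the basal-like and the seminal vesicle-like cells together, the last being 126 DoubleTg and 571 TripleTg cells. Seminal vesicle markers summed to 8386 and 60169 CPM over this class and to 101 and 1368 CPM in luminal-like cells alone, and their part in the values below was not tested. In epithelial-like cells 14 chemokine and receptor genes passed the CPM limit, of which 3 were higher and 2 lower in TripleTg, against 9.59% higher and 12.0% lower over all 9104 genes. Their median log2 ratio of TripleTg over DoubleTg was -0.05, beside -0.12 over all genes. Higher were Cxcl5, Cxcl1 and Cxcl3, and lower were Cxcl17 and Cxcl15. All of these but Cxcl17 are neutrophil-attracting ligands, so that role stood on both sides.

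Among luminal-like cells, 3 of 13 genes were higher and 2 lower (all genes 11.5% and 12.5%). Cxcl1 was 60.5 CPM in DoubleTg and 203 CPM in TripleTg luminal-like cells (log2 ratio 1.75, 1.72 to 1.78). After thinning its UMIs were seen in 6.50% and 22.0% of cells (29.6% and 66.8% unthinned), beside 0.386% of DoubleTg T or NK-like cells (1.14%). No TripleTg cells were named T or NK-like, so the TripleTg share has no such value beside it. The neighbour of Cxcl1 on chromosome 5, Cxcl2, stood at 184 and 359 CPM, a ratio of 0.96, 0.94 to 0.98, just under the size limit. Cxcl1 was higher in TripleTg in luminal-like but not in basal-like cells, where it stood at 131 and 81.9 CPM (-0.68), and the difference between those classes was not tested. In all epithelial-like cells Cxcl1, Cxcl3 and Cxcl5 had ratios of 1.31, 1.01 and 1.80.

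Cxcl17 was the luminal gene with the lowest ratio. It stood at 93.0 CPM (91.6 to 94.3) in DoubleTg and 2.44 CPM (2.19 to 2.70) in TripleTg, a log2 ratio of -5.25, -5.41 to -5.10, which was -7.43 when the chemokine genes were among the variable genes of the clustering. Every DoubleTg luminal-like cluster, 10 in all, had between 4.30 and 308 CPM, whereas 6 of the 7 TripleTg clusters had at most 0.757 CPM. The remaining TripleTg cluster, 281 cells led by Reg3b, Reg1 and Reg3g with the interferon genes Ifit1 and Isg15 among its top genes, had 36.8 CPM. After thinning, 12.1% of DoubleTg and 0.437% of TripleTg luminal-like cells had a UMI (45.2% and 2.07% unthinned), beside 0.877% and 0.256% of basal-like cells, so the TripleTg luminal share was no higher than that of DoubleTg basal-like cells. The level of Cxcl15 was 14.8 and 3.48 CPM (-2.08, -2.22 to -1.95).

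The same small TripleTg cluster carried most of the luminal difference in Cxcl5. This ligand was 7.50 and 23.5 CPM in luminal-like cells (log2 ratio 1.65, 1.56 to 1.73) and 325 CPM in that cluster. Without it the luminal ratio turned to -0.36 and the ratios over all epithelial-like cells were 0.75 for Cxcl5 and 0.83 for Cxcl3, while the luminal ratio of Cxcl1 was 1.70. Cxcl14 passed the limit at 2.64 and 6.25 CPM (1.24).

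Cxcl10 and Ccl5 were concentrated in clusters with interferon-induced genes among their top genes, and in DoubleTg so was Cxcl9. In DoubleTg, a luminal-like cluster of 138 cells led by Rsad2 and the Ifit genes had 689.9 CPM of Cxcl10, 184 of Ccl5 and 70.7 of Cxcl9. In TripleTg the Reg3b cluster described above had 220.2, 97.7 and 6.36 CPM. Over all luminal-like cells Cxcl10 was 44.4 and 28.2 CPM (-0.66), within 2-fold. Cxcl2 was highest elsewhere, at 827 CPM in a TripleTg cluster of 1006 cells led by 9530053A07Rik, Coch and Defb50 and at 588 CPM in a DoubleTg cluster of 273 cells led by Gsdmc2 and Cyp2f2. That DoubleTg cluster also held the highest epithelial levels of Cxcl17 (308 CPM), Cxcl15 (80.2) and Ccl20 (66.5).

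**Figure D2:**
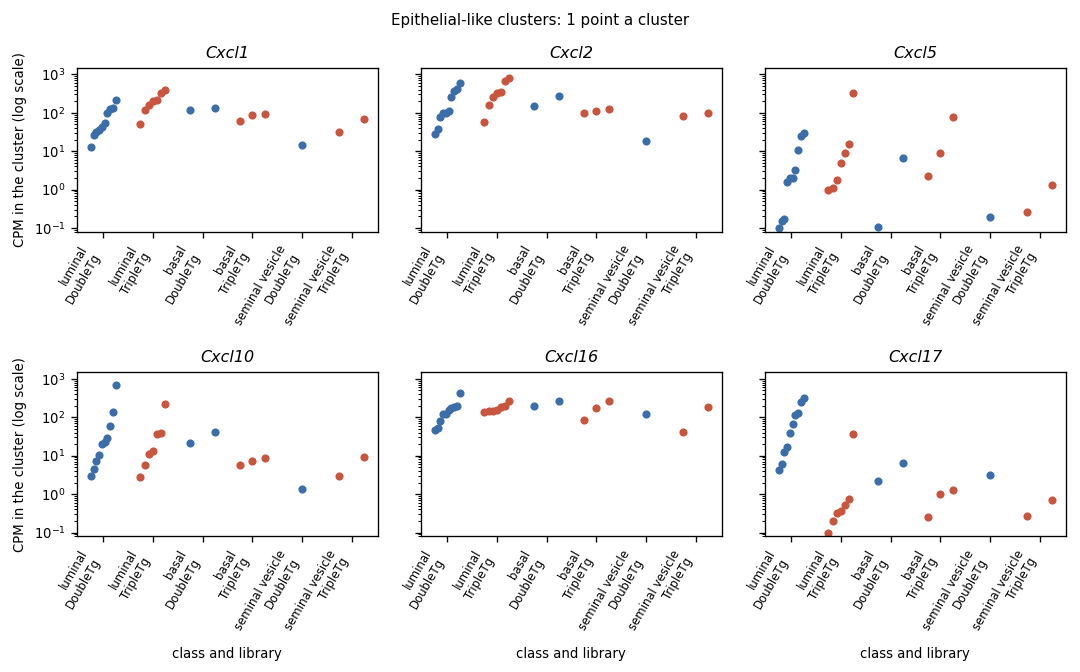
Level of epithelial chemokines (CPM, log axis, values under 0.1 drawn at 0.1) in each epithelial-like cluster of at least 50 cells, 1 point a cluster, blue for DoubleTg and red for TripleTg. Cxcl17 lies between 4.30 and 308 CPM in the DoubleTg luminal-like clusters, and 1 TripleTg cluster stands apart at 36.8 CPM.

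Basal-like cells (1858 DoubleTg and 1186 TripleTg) had 3 of 16 genes higher and 5 lower in TripleTg (all genes 15.5% and 13.4%), with a median log2 ratio of -0.49 beside -0.07 over all genes. Cxcl5 was 4.45 and 51.4 CPM (3.53, 3.26 to 3.82), Cxcl3 was 0.502 and 17.1 (5.09, 4.30 to 6.01) and Cxcl13 was 1 against 149 UMIs (7.10, 4.60 to 12.41), of which 1 cell held 77.9%. Lower in TripleTg were Ccl20, the ligand of Ccr6, at 15.9 and 1.67 CPM (-3.25), Cxcl12 at 14.6 and 2.17 (-2.75) and Cxcl10 at 28.1 and 6.09 (-2.21). Cx3cl1 (-1.22) and Cxcl2 (226 and 108 CPM, -1.07) were lower by smaller margins, and came to -0.97 and -0.52 when the chemokine genes were among the variable genes. Neutrophil-attracting ligands thus stood on both sides in this class. Markers of basal cells summed to 14790.0 CPM in DoubleTg and 4937 CPM in TripleTg, and their part in these values was not tested.

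Fibroblast-like cells (713 and 331) had 10 of 26 genes higher and 3 lower (all genes 13.7% and 8.26%), with a median log2 ratio of 0.80 beside 0.07. Scaling by trimmed means, which removes the effect of a few very abundant genes, shifted all ratios by -0.14 and gave 8 higher and 3 lower. Of the neutrophil-attracting ligands, Cxcl1 was 914 and 2217 CPM (1.28, 1.23 to 1.33), Cxcl2 521 and 1099 (1.08, 1.01 to 1.15), Cxcl5 10.9 and 93.3 (3.10, 2.72 to 3.50) and Cxcl3 1.04 and 94.4 (6.50, 5.44 to 7.83). All 4 were higher in TripleTg, but Cxcl2 was within 2-fold under trimmed-mean scaling (0.94) and after thinning (0.59), and Cxcl1 with the mean of per-cell CPM (0.86). Ccl11 was 55.0 and 271 CPM (2.30, 2.12 to 2.48) and Cxcl16 66.6 and 145 (1.12, and 0.59 after thinning). The fibroblast markers of this class summed to 12789 CPM in DoubleTg and 26370 CPM in TripleTg. Smooth muscle or pericyte markers summed to 3634 and 1817 CPM and epithelial markers to 398.9 and 1132.5 CPM. The part of these marker differences in the ratios was not tested.

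The 4 remaining genes higher in TripleTg fibroblast-like cells are better known from leukocytes and stood at low levels. Ccl9 was 3 and 103 UMIs (6.46, 4.87 to 8.76), Ccr1 4 and 18 UMIs (3.53) and Cxcr4 9 and 25 UMIs (2.83), and Ccl24 had 0 and 21 UMIs, at least 17.9-fold higher taking 3 counts for the 0. The 7 macrophage markers summed to 64.2 CPM in DoubleTg and 178 CPM in TripleTg fibroblast-like cells, with none of them at 0 in either library, and their part in these values was not tested. Lower were Cxcl10 at 419.7 and 84.9 CPM (-2.31, -2.51 to -2.11), Cxcl9 at 51.4 and 24.7 (-1.06, and -0.09 after thinning) and Ccl21a, whose 92 DoubleTg UMIs were 98.9% in 1 cell and whose ratio of -3.58 turned to 2.36 without the top cells. The abundant stromal ligands Ccl2 (0.04) and Cxcl14 (0.22) and also Ccl7 (0.65) and Cxcl12 (0.97) were within 2-fold.

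Smooth muscle or pericyte-like cells were few (56 and 86), with 6 of 22 genes higher and 4 lower (all genes 20.9% and 16.5%). Ccl11 was 1822 and 137 CPM (-3.73, -3.99 to -3.48), Ccl2 849.7 and 205 (-2.05, -2.30 to -1.81), Ccl7 264 and 99.3 (-1.41) and Cxcl12 16 and 10 UMIs (-1.92). Ccl11 thus stood higher in DoubleTg here and higher in TripleTg in fibroblast-like cells. Cxcl16 was 8 and 109 UMIs (2.52, 1.49 to 3.77) and Cxcl5 1 and 52 (4.46, 1.91 to 9.79), with 80.8% in 1 cell, without which its ratio was 0.49. Cx3cl1 had 0 and 24 UMIs (at least 3.38-fold), Ccl21a 0 and 83, of which 80 were in 1 cell, and Ccl4 (1 and 9) and Cxcl3 (1 and 7) rested on single counts in DoubleTg, with ratios of 1.93, -0.93 to 7.38 and 1.56, -1.40 to 7.06. The ratios of Cx3cl1, Ccl4 and Cxcl3 turned negative under at least 1 alternative, and the ratios of Ccl7 and Cxcl12 came to -0.51 without limits on cells and -0.22 after thinning. Markers of other cells also differed in this class: endothelial markers summed to 89.3 CPM in DoubleTg and 484 CPM in TripleTg, fibroblast markers to 1094 and 3357, epithelial markers to 1941 and 4064 and the markers of the class itself to 14953 and 9595. Their part in these values was not tested.

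Endothelial-like cells (256 and 233) had 9 of 24 genes higher and 8 lower (all genes 17.0% and 7.48%), with a median log2 ratio of 0.01. Cxcl12, Ackr3 and Cx3cl1, which endothelium is known to express, were lower in TripleTg. Cxcl12 was 698 and 197 CPM (-1.82, -1.98 to -1.67), its scavenger Ackr3 263 and 92.2 (-1.51, -1.75 to -1.28) and Cx3cl1 76.1 and 19.8 (-1.94, -2.45 to -1.45), while Cxcr4, the signalling receptor of Cxcl12, was 42.0 and 125 (1.58, 1.21 to 1.96). Ligand and scavenger thus stood lower and the signalling receptor higher in the same class. Cxcr4 was also found in leukocyte classes, however. In this endothelial-like class neutrophil markers summed to 17.9 CPM in DoubleTg and 2091 CPM in TripleTg and macrophage markers to 11.7 and 132 CPM. Their part in the Cxcr4 value was not tested. Cxcl10 was 68.2 and 178 CPM (1.38, 1.09 to 1.68), a ratio that was 0.38 after thinning and 0.13 with the mean of per-cell CPM, and Ackr2 7.83 and 26.1 (1.74). Ccl5 was 131 and 27.0 CPM (-2.28). The endothelial markers of this class summed to 8616 CPM in DoubleTg and 5732 CPM in TripleTg, and lymphatic endothelial markers to 488 and 315 CPM. The part of these marker differences in the ratios was not tested.

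Several endothelial values rested on 1 cell or on few UMIs. All 149 DoubleTg UMIs of Ccl11 (-7.63, -12.94 to -5.13, from 1 TripleTg UMI) were in 1 cell, as were 78.0% of Ccl2 (-1.92) and 64.7% of Ccl7 (-1.18, -2.46 to 0.03) in DoubleTg and 83.8% of Ccl4 (3.68), 61.1% of Ccl3 (3.76, 1.10 to 9.14) and 77.3% of Ccl8 in TripleTg. Cxcr6 had 11 and 0 UMIs (at least 4.87-fold lower in TripleTg), and Ccl8 and Ccl6 had 0 UMIs in DoubleTg and 22 and 16 in TripleTg (at least 5.52-fold and 4.02-fold higher). Cxcl3 (1 and 14 UMIs, 3.40, 0.68 to 8.80) and Cxcl14 (4 and 44, 3.05) were higher in TripleTg. After thinning the ratios of Ccl3 and Ccl6 were both 0.18. Markers of neutrophils summed to 17.9 CPM in DoubleTg and 2091 CPM in TripleTg endothelial-like cells and those of macrophages to 11.7 and 132 CPM. In DoubleTg 3 of 6 neutrophil and 3 of 7 macrophage markers were at 0 and in TripleTg none, and their part in these values was not tested.

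Macrophage-like cells (285 and 524) had 7 of 27 genes higher and 9 lower, against 19.7% and 5.3% over all genes, with a median log2 ratio of -0.41 where that of all genes was 0.30. Trimmed-mean scaling shifted all ratios by -0.30 and gave 6 higher and 11 lower, with a median of -0.72. Of the inflammatory CC ligands, 3 were lower in TripleTg: Ccl4 at 7048 and 1038 CPM (-2.76, -2.80 to -2.72), Ccl5 at 2324 and 358 (-2.70, -2.77 to -2.63) and Ccl3 at 1509 and 285 (-2.40, -2.49 to -2.32). Cxcl10 was 969 and 119.8 CPM (-3.02, -3.14 to -2.90), Ccl7 883 and 188 (-2.23), Ccl2 474 and 135 (-1.81) and Cxcl16 1578 and 661 (-1.26). Ccr7 (215 and 44.2 CPM, -2.28) and Ccl22 (-2.24), both highest in dendritic-like cells, were also lower.

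A different set of ligands and receptors was higher in TripleTg macrophage-like cells. Ccl6 and Ccl9, ligands of Ccr1, stood at 63.8 and 526 CPM (3.04, 2.83 to 3.26) and at 109.7 and 379.8 CPM (1.79, 1.62 to 1.96), and Ccr1 itself at 65.1 and 263 CPM (2.01, 1.80 to 2.23). After thinning, 5.84% (3.37 to 9.31%) of DoubleTg and 39.5% (35.0 to 44.1%) of TripleTg macrophage-like cells had a Ccr1 UMI (19.6% and 69.7% unthinned, at median depths of 9937 and 9141 UMIs), beside 0.167% of TripleTg luminal-like cells. Neutrophil markers summed to 27.2 CPM in DoubleTg macrophage-like cells, with 2 of 6 at 0, and to 256 CPM in TripleTg, with 1 of 6 at 0, and their part in these values was not tested. Cxcl13 was 21.9 and 252 CPM (3.52, 3.17 to 3.90), Cxcl14 164 and 491 (1.58), Ccr2 6.65 and 18.5 (1.47) and Ccl25 4.32 and 10.5 (1.28). With the mean of per-cell CPM, Cxcl14 (0.93) and Ccl25 (0.76) were within 2-fold.

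The neutrophil-attracting ligands did not follow either set. Cxcl2 (-0.37, -0.39 to -0.35), Cxcl1 (-0.41, -0.46 to -0.37) and Cxcl3 (0.22, 0.13 to 0.30) were within 2-fold in macrophage-like cells, as were Ccl8, Ccl12, Cxcl9, Cxcr4 and Cx3cr1. Epithelial markers summed to 508 CPM in DoubleTg and 2682 CPM in TripleTg macrophage-like cells, whereas the 7 macrophage markers summed to 9803 and 9933 CPM.

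The class was 1 cluster in DoubleTg and 4 in TripleTg, and the TripleTg clusters differed among themselves. The cluster of 194 cells led by Spp1, Mmp12 and Lyz2 had 810.4 CPM of Ccl6, 828 of Cxcl14 and 65.6 of Ccl8. The cluster of 225 cells led by H2-Aa, H2-Eb1 and Pf4 had 15384 CPM of Cxcl2, 1450.0 of Ccl8, 742 of Cxcl13 and 51.3 of Ccr2, with 125 of Cxcl14. Another cluster of 95 cells, led by Acp5 and Ctsk, had 2806 CPM of Cxcl2. In each of these 3 clusters Ccl4 was lower (112 to 1779 CPM) than in the DoubleTg cluster (7048). Ccr1 was higher in each (101 to 429 against 65.1 CPM). The remaining TripleTg cluster held only 10 cells, too few to weigh with the others. With it included, Ccl4 ranged from 76.9 to 1779 CPM and Ccr1 from 101 to 429 CPM.

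**Figure D3:**
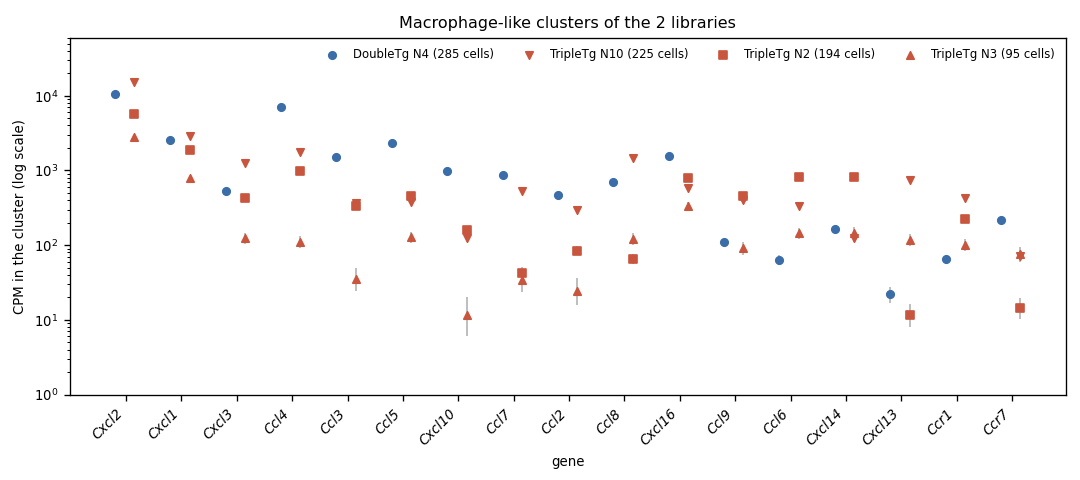
Level of chemokines and receptors (CPM, log axis) in each macrophage-like cluster of at least 50 cells with 95% counting intervals as grey bars, blue for the DoubleTg cluster and red for the TripleTg clusters (1 marker shape a cluster, with its working name in the legend). Ccl4 lies at 7048 CPM in DoubleTg and at or under 1779 CPM in TripleTg, while Cxcl2 of TripleTg clusters lies on both sides of the DoubleTg value.

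**Figure D4:**
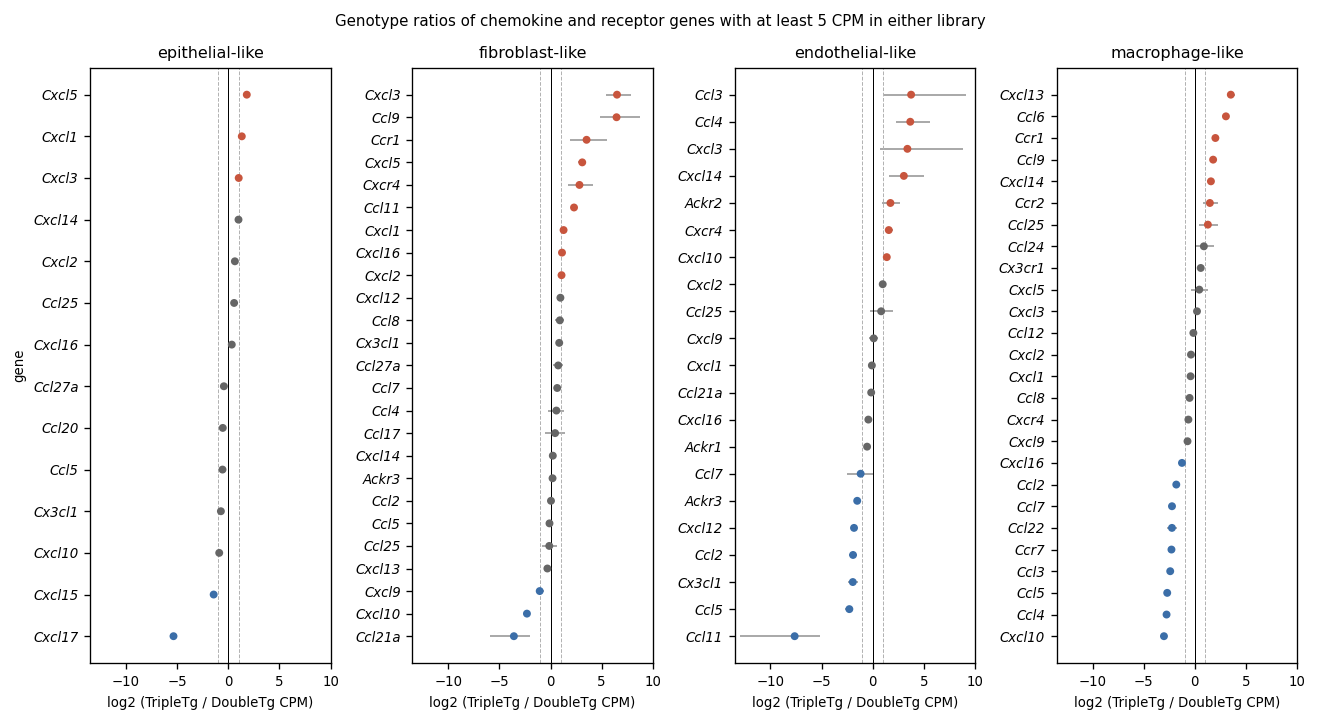
Log2 ratio of TripleTg over DoubleTg with its 95% counting interval for each chemokine or receptor gene reported here with at least 5 CPM in either library, in epithelial-like, fibroblast-like, endothelial-like and macrophage-like cells, with dashed lines at 2-fold, in red where at least 2-fold higher in TripleTg, blue where at least 2-fold lower and grey within 2-fold. Genes with 0 UMIs in a library are left out, and the lowest epithelial ratio is that of Cxcl17 at -5.37.

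Some genes differed in opposite directions between classes. Cxcl10 was lower in TripleTg in macrophage-like (-3.02), fibroblast-like (-2.31) and basal-like cells (-2.21) and higher in endothelial-like cells (1.38). Cxcl16 was lower in macrophage-like (-1.26) and higher in fibroblast-like (1.12) and smooth muscle or pericyte-like cells (2.52). These differences between classes were not tested. After thinning, the endothelial-like ratio of Cxcl10 and the fibroblast-like ratio of Cxcl16 were within 2-fold.

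A comparison within 1 library used DoubleTg luminal-like cells, split by whether a UMI of the hMETtg transgene was seen after thinning each cell to 5000 UMIs, which gave 3316 positive and 1558 negative cells. With all UMIs only 849 luminal-like cells were negative, so part of the 1558 held an hMETtg UMI at full depth. Of 14 chemokine and receptor genes with at least 5 CPM, 0 were at least 2-fold higher and 4 at least 2-fold lower in positive cells, against 0.774% and 1.45% over all genes but the transgene, and their median log2 ratio was -0.63 beside 0.07. Cxcl12 stood at 5.52 CPM in negative and 0.844 in positive cells (log2 ratio -2.71, -3.69 to -1.81), Cxcl15 at 23.4 CPM in negative and 8.38 in positive cells (-1.48, -1.81 to -1.15) and Ccl20 at 18.2 CPM in negative and 7.66 in positive cells (-1.25, -1.61 to -0.90). Cxcl9 had 44 and 30 UMIs (-1.64, -2.36 to -0.94), and its ratio turned to 1.52 when all UMIs were used. Cxcl12 and Cxcl9 (5.65 and 1.81 CPM) passed the 5 CPM limit only through the negative cells, the group in which they were high. With all UMIs the ratio of Cxcl15 was -0.94.

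Most of the abundant luminal ligands lay near even in that split. Cxcl1 (0.12), Cxcl2 (-0.15) and Cxcl16 (0.23) were close to 0, Cxcl10 was 30.3 CPM in negative and 45.5 in positive cells (0.59, 0.37 to 0.80) and Cxcl17 133 CPM in negative and 79.9 in positive cells (-0.74, -0.86 to -0.62). With all UMIs, 4190 positive and 849 negative cells, 12 of the 14 genes had a ratio of the same sign. The cells come from 1 library and from clusters with different chemokine levels, so this split describes cells and has no replicate.

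Other genes of the pathway, a list of 19 that the files hold, were set beside the chemokine genes. In luminal-like cells 2 of 12 were higher in TripleTg and 1 lower, against 11.5% and 12.5% over all genes. Nfkbiz, a regulator of NF-κB target genes, was 44.5 and 206 CPM (2.21, 2.17 to 2.24), Dpp4, a protease that trims chemokines, 19.8 and 80.5 (2.02, 1.97 to 2.08) and Rgs2, an inhibitor of G protein signalling, 294 and 28.0 (-3.39, -3.44 to -3.35). In macrophage-like cells 1 of 17 was higher and 7 were lower, against 19.7% and 5.3% over all genes, among them Ccrl2 at 1451 and 389 CPM (-1.90), Nfkbiz (-1.24) and Nfkb1 (-1.04). Nfkbiz thus stood higher in TripleTg luminal-like cells and lower in TripleTg macrophage-like cells. In the remaining classes the counts of higher and lower genes were 3 and 4 of 13 in basal-like (all genes 15.5% and 13.4%), 2 and 2 of 16 in fibroblast-like (13.7% and 8.26%), 3 and 3 of 14 in smooth muscle or pericyte-like (20.9% and 16.5%) and 5 and 0 of 17 in endothelial-like cells (17.0% and 7.48%).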

How the data were processed

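Prostate cells of 1 DoubleTg and 1 TripleTg mouse library were measured by 10x Genomics 3′ single-cell RNA sequencing. The deposited matrices hold raw UMI counts per gene and cell, which the authors made with Cell Ranger on the mouse genome with the transgene sequences added. The submitters' processing notes name Cell Ranger 6.0.2 and the header of the DoubleTg matrix names 6.1.1. The limits of the study (over 200 and under 7000 genes, under 15% mitochondrial UMIs) were applied to both. They left out 1474 of 12072 DoubleTg cells and none of the 9492 TripleTg cells, whose matrix had been filtered before deposit. The number of DoubleTg cells kept is not the one in the study's methods.

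Each library was clustered with scanpy 1.11.5 without the chemokine and receptor genes (2000 variable genes, 20 principal components, 15 neighbours, Leiden resolution 1). Clusters were named from fixed marker lists, with naming thresholds revised after the clusters had been seen. Class UMIs were divided by the class total to give CPM. Sums have exact Poisson, shares exact binomial (Clopper-Pearson) and ratios conditional binomial intervals at 95% confidence, and no p-value was computed because each genotype is 1 library. A group with 0 UMIs was given a bound from 3 counts. The ratio code was tested on simulated data. Trimmed-mean (TMM) scaling used edgeR 4.0.16 on summed class counts. A doublet caller (scanpy's Scrublet) marked 266 DoubleTg cells (2.51%) and 0 TripleTg cells, so doublets were kept, and leaving out the 8% of cells with the highest scores was added as an alternative after the data were seen, as were leaving out top cells and 1 TripleTg cluster.

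Named with values was each gene with at least 50 CPM in a class of at least 50 cells, or with at least 5 CPM and a 2-fold ratio between genotypes. A gene that met the first limit is counted but its values are not reported here or drawn. The genes, roles and lists were chosen with earlier results of these data known. Promoters are RefSeq's on GRCm38.p6, matched by symbol for 44 of 58 genes, and gene spans are on GRCm38 from GENCODE.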

Additional observations from a re-analysis of the deposited data

Results flagged for a closer look

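The items here are genes whose ratio of TripleTg over DoubleTg exceeded 2-fold in opposite directions in different cell classes. With 1 library per genotype none of these differences was tested. For Cxcl2 the log2 ratio was 1.08 in fibroblast-like and -1.07 in basal-like cells, and each came under 2-fold in an alternative (0.94 with TMM scaling and 0.59 after thinning in fibroblast-like, -0.52 with chemokine genes among the variable genes in basal-like cells). For Cxcl10 it was 1.38 in endothelial-like cells and -2.21, -2.31 and -3.02 in basal-like, fibroblast-like and macrophage-like cells. For Cxcl16 it was 1.12 in fibroblast-like (0.59 after thinning), 2.52 in smooth muscle or pericyte-like and -1.26 in macrophage-like cells.

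For Ccl11 the log2 ratio was 2.30 in fibroblast-like, -3.73 in smooth muscle or pericyte-like and -7.63 in endothelial-like cells, the last from UMIs of 1 cell. Ccl3 stood at 3.76 in endothelial-like and -2.40 in macrophage-like cells and Ccl4 at 3.68 and -2.76, where the endothelial values rested mostly on 1 TripleTg cell each. The endothelial value of Cxcl10 was 0.38 after thinning.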

How the results depend on the processing

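The counts in epithelial-like cells (3 higher, 2 lower, median -0.05) became 4 higher and 2 lower, with a median of -0.02, under TMM scaling. The count of lower genes became 4 with cells thinned to 2000 UMIs and 4 with the mean of per-cell CPM, which also gave a median of -0.18. A limit of 1 CPM gave 9 higher and 5 lower genes and a median of 0.56. Of 74 ratios past 2-fold, 3 came under it with TMM scaling, 8 with per-cell means, 5 at Leiden resolution 2, 4 without limits on cells and 4 with chemokine genes among the variable genes. After thinning it was 7 of 65, without the highest doublet scores 5 of 72, and without the top cells 11 of 71. Ratios that changed sign were those of Cxcl5 in luminal-like cells (-0.14 with chemokine genes among the variable genes, -0.36 without the TripleTg Reg3b cluster), Ccl21a in fibroblast-like cells (2.36 without the top cells), Ccl7 in endothelial-like cells (1.35 after thinning), Ccl2 in endothelial-like cells (0.51 without the highest doublet scores) and Cxcl9 in the hMETtg split (1.52 with all UMIs). In smooth muscle or pericyte-like cells it was Cx3cl1 (-0.78 without limits, -0.62 at resolution 2), Ccl4 (-0.38 at resolution 2, -0.50 without the top cells) and Cxcl3 (-0.51 without the top cells). Apart from the settings that leave out cells, the cause was not tested. The planned removal of called doublets could not be run because the caller marked no TripleTg cell. At 5000 UMIs, 33 of 36 shares were higher than at 2000. No paired analysis was possible because each genotype has 1 library. Counting intervals say nothing of the spread between mice, and genes with few UMIs, or in classes of under 100 cells, are limited by depth.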

Other observations

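Cells that took no class name also held chemokine RNA. A TripleTg cluster of 100 cells with the T cell markers Cd3d and Cd3g and the mast cell genes Tpsb2, Mcpt4 and Cma1 among its leading genes had 921 CPM of Ccl5, 44.4 of Xcl1 and 35.4 of Cxcr6. A DoubleTg cluster of 136 cells led by Icos and Cd28 had 2616 CPM of Ccl5, 359 of Cxcr6 and 73.7 of Xcl1. A TripleTg cluster of 101 cells led by the neutrophil genes S100a8, S100a9 and Retnlg, with lung surfactant genes among its top genes, had 10 UMIs of Cxcr2 (4.44 CPM).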
